A study of Xenopus tropicalis with 12 samples.

Results

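The genes described here are those whose annotation holds 50 or more exon blocks. They were chosen by counting, for each gene of the deposited count table, the separate exon intervals listed for it, with mitochondrial genes left out. The table listed 19921 genes. Of these, 200 had 50 or more blocks, and 184 of these had enough counts to be tested, which is 1.28% of the 14320 genes tested. The 16 left out by the filter on low counts had at most 15 counts in any library. The choice used the number of blocks and this filter, but no test of a difference between groups. The filter keeps a gene with enough counts in as many libraries as 1 group holds. Some genes with few counts are therefore in the list only through the group where they were higher. Such genes stay in the counts of called genes below, but a call that rests on that group is no result. The exon intervals of a gene never repeated or overlapped one another in this list, so an interval stands for a separate block of sequence. In 52 of the 184 genes some blocks were less than 20 bp apart, and 9 genes fell under 50 blocks when such neighbours were joined.

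RNA was sequenced from the hind limb of Xenopus tropicalis tadpoles that were wild type (WT) or TRα (-/-), that is, lacking thyroid hormone receptor α, the 2 genotypes being of shared parentage per the labels. Tadpoles of each genotype were left untreated or exposed for 18 hours to 10 nM T3, the hormone's active form. They were at stages 52 to 54 per the labels and at stage 54 per the paper. On parentage, the paper's methods name a purchased wild-type stock, and TRα (-/-) animals from crosses of TRα (+/-) frogs. The 4 groups are WT, WT with T3, TRα (-/-) and TRα (-/-) with T3, with 3 libraries each made from 1 merged RNA preparation of several tadpoles. The p-values below therefore set differences between pools against the noise of making and sequencing libraries, and the variation between tadpoles was not measured.

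In vertebrates, genes split into very many exons often encode very long proteins, such as giant muscle proteins, extracellular matrix proteins, molecular motors and large receptors. Thyroid hormone receptors bind DNA with or without hormone, and at the genes they activate they commonly repress transcription without hormone and activate it with hormone. In the frog limb, T3 drives growth and differentiation at metamorphosis. The count table gives Ensembl gene identifiers without names, and no name could be matched to them, so neither the function of a gene below nor the knocked-out receptor gene or any cell type marker could be checked.

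The 184 genes were long. Their exon blocks numbered 58.5 at the median and 295 at most, and their summed exon length had a median of 7880.5 bp (range 2736 to 94440 bp) against 1761 bp over all tested genes. They lay on 152 scaffolds of the JGI 4.2 assembly, 90 on the plus and 94 on the minus strand, with at most 3 on a scaffold, and 1 of them overlapped an exon of another gene. Their summed exon length was a multiple of 3 in 141 genes (76.6%), against 62.1% of all tested genes. Per kb of exon, their level was below that of other genes. The median was 3.71 CPM per kb in WT, 2.54 in WT with T3, 2.99 in TRα (-/-) and 2.46 in TRα (-/-) with T3, where all tested genes had medians of 5.65, 5.67, 5.65 and 5.73 CPM per kb. CPM are counts relative to a common library total, after scaling of the library totals by TMM (trimmed mean of M-values). The libraries held between 32649742 and 52430305 counts. The spread between libraries beyond counting noise, as a coefficient of variation, had a median of 0.0392 in these genes and 0.0417 over all tested genes.

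**Figure D1:**
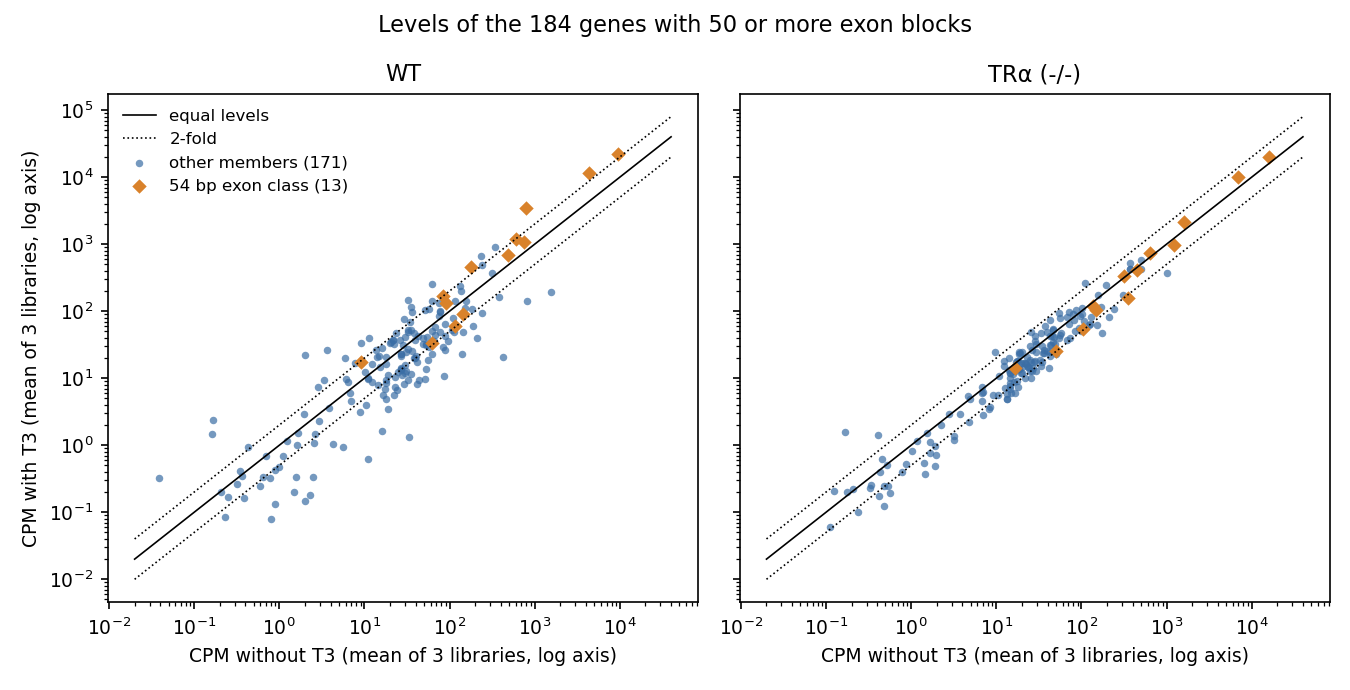
Mean CPM of each of the 184 genes without T3 (x axis) and with T3 (y axis) in WT (left) and TRα (-/-) (right), on log axes, each point a gene and each mean over 3 libraries. Solid line, equal levels; dotted lines, 2-fold; diamonds, the 13 genes of the 54 bp exon class. The points scatter more widely in WT, where 88 genes passed the dotted lines and the test, than in TRα (-/-), where 40 did. Over all tested genes 22.8% were raised and 25.1% lowered in WT, and 7.14% and 9.64% in TRα (-/-). More calls in WT were thus not particular to these genes.

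The first comparison asked how T3 changed these genes in WT hind limb. More of them fell than rose. T3 raised 28 of the 184 genes (15.2%) and lowered 60 (32.6%), where a call needs an adjusted p under 0.05 (edgeR, Benjamini-Hochberg over all tested genes) and a change of 2-fold or more. Over all tested genes 22.8% were raised and 25.1% lowered. The 28 and the 60 include genes that passed the filter on low counts only through the group where they were higher. The median log2 change was -0.44 in the 184 genes and -0.05 over all tested genes. Of the 184 genes 67 had a positive change (36.4%, beside 48.6% of all tested genes). In bulk tissue, fewer cells of a type and less RNA per cell cannot be told apart.

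The scaling of the libraries bears on these directions. When only the total counts were used for scaling, the median over all tested genes (log2) shifted by 0.54 in the T3 contrast in WT and by 0.12 in that in TRα (-/-). It shifted by -0.09 and -0.51 in the genotype contrasts without and with T3, and by -0.42 in the interaction. Under it the median of the 184 genes for T3 in WT turned from -0.44 to 0.10 and the split turned from 28 raised and 60 lowered to 54 raised and 35 lowered, beside 35.7% raised and 15.6% lowered over all tested genes. A change of scaling shifts all genes of a contrast by nearly the same amount, and relative to the median of all tested genes the 184 genes stood at -0.40 with TMM.

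The genes lowered most by T3 in WT kept only a small part of their untreated level. ENSXETG00000014244 (scaffold GL172651.1, 686650 to 723311, minus strand, 51 blocks) had 34.2, 33 and 33.6 CPM in the WT libraries and 1.04, 1.38 and 1.56 CPM with T3. The TRα (-/-) libraries had 17.2, 16.2 and 15.8 CPM without T3 and 11.5, 13.6 and 13 CPM with T3. T3 thus lowered it by a log2 change of -4.65 (SE 0.087, adjusted p = 1.46e-25) in WT, whereas in TRα (-/-) the change of -0.37 (SE 0.071, adjusted p = 4.46e-05) was under 2-fold. The library values of untreated and treated tadpoles did not overlap in either genotype, which in WT the rule for naming genes required.

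ENSXETG00000015544 (scaffold GL172656.1, 4688571 to 4783385, plus strand, 56 blocks) was among the higher-expressed genes of the set in WT, with 408, 423 and 430 CPM, and had 21.5, 19.3 and 20.9 CPM with T3. In TRα (-/-) it had 179, 174 and 172 CPM without T3 and 45.5, 45.5 and 49.6 CPM with T3. Its log2 change was -4.35 (SE 0.049, adjusted p = 6.64e-30) in WT and -1.90 (SE 0.045, adjusted p = 2.85e-22) in TRα (-/-). This gene therefore fell in both genotypes. The rule for naming genes, given at the end, required that its treated and untreated libraries not overlap in each genotype. The libraries of the 2 genotypes did not overlap either, without or with T3.

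The genes raised most in WT, among those with at least 5 CPM in the higher group, were low there before T3. ENSXETG00000007799 (scaffold GL172771.1, 1519870 to 1594309, plus strand, 67 blocks) had 1.96, 1.94 and 2.17 CPM in WT and 23.2, 21.4 and 22.2 CPM in WT with T3, a log2 change of 3.45 (SE 0.083, adjusted p = 2.92e-23). The values in TRα (-/-) were 19.6, 19.2 and 17.1 CPM without T3 and 13.4, 13.6 and 14.2 CPM with T3, a log2 change of -0.44 (SE 0.062, adjusted p = 5.71e-07). Only the 3 untreated WT libraries were low. ENSXETG00000021319 (scaffold GL172747.1, 1142507 to 1182816, plus strand, 55 blocks) showed the same order of groups. It had 3.77, 3.44 and 3.75 CPM in WT, 27.8, 26 and 25.9 in WT with T3, 15.7, 16.6 and 15.3 in TRα (-/-) and 10.6, 13.1 and 11.5 in TRα (-/-) with T3. Its T3 change was 2.86 on the log2 scale (SE 0.078, adjusted p = 4.83e-22) in WT and -0.43 (SE 0.069, adjusted p = 3.90e-06) in TRα (-/-).

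**Figure D2:**
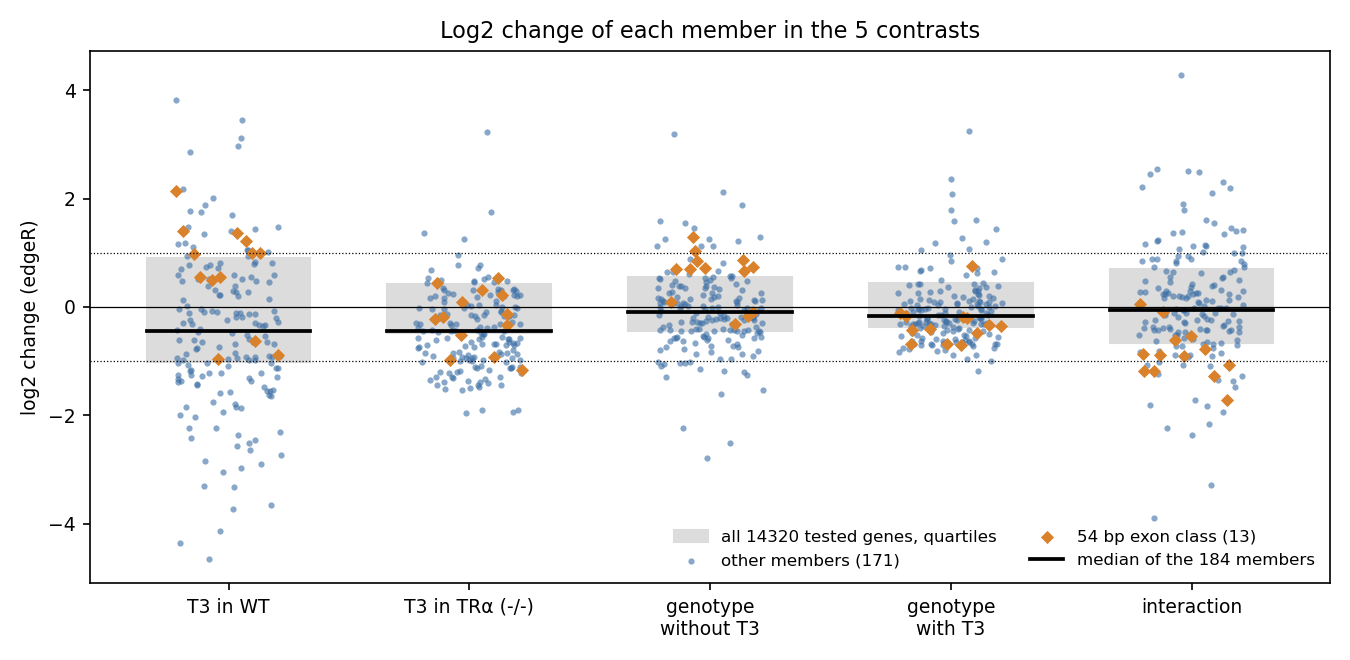
Log2 change of each of the 184 genes (points; diamonds, the 13 genes of the 54 bp exon class) in the 5 contrasts named on the x axis, with the median of the 184 (black bar), the quartiles of all 14320 tested genes (grey box) and 2-fold change (dotted lines). The median of the 184 genes was -0.44 for T3 in both genotypes, and scaling by total counts alone turned it to 0.10 in WT.

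In TRα (-/-) hind limb T3 changed fewer of these genes, again mostly downward. It raised 4 genes (2.17%) and lowered 36 (19.6%), beside 7.14% raised and 9.64% lowered over all tested genes. The median log2 change was -0.44 against -0.02 over all tested genes. Of the 184 genes 51 had a positive change (27.7%, beside 48.9% of all tested genes). Scaling by total counts alone gave 5 raised and 29 lowered, beside 9.32% and 7.58% of all tested genes. The 36 and the 60 genes lowered in TRα (-/-) and in WT come from different libraries. They shared 28 genes, which is 77.8% of the first list and 46.7% of the second, beside 70.8% and 27.1% for the same lists over all tested genes. The 32 genes called lowered in WT alone had medians of -1.48 in WT and -0.81 in TRα (-/-). Over all tested genes, the 2583 called lowered in WT with no call in TRα (-/-) had medians of -1.61 and -0.40. All 60 genes had negative values in TRα (-/-), from -1.97 to -0.02, where the median of the whole set was also negative.

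All 4 genes raised in TRα (-/-) were also raised in WT, as were 85.2% of the genes raised in TRα (-/-) over all tested genes. With at least 10 counts required in every library, 2 of the 4 were left. ENSXETG00000023940 (scaffold GL172772.1, 595529 to 630985, plus strand, 51 blocks) had 61.1, 63.7 and 62.9 CPM in WT, 259, 246 and 253 in WT with T3, 114, 110 and 107 in TRα (-/-) and 267, 258 and 262 in TRα (-/-) with T3. Its log2 change was 2.01 (SE 0.039, adjusted p = 2.63e-25) in WT and 1.25 (SE 0.038, adjusted p = 3.57e-20) in TRα (-/-), and the treated libraries of the 2 genotypes overlapped. ENSXETG00000032346 (scaffold GL172879.1, 455456 to 521254, minus strand, 62 blocks) had 10.5, 11.4 and 12.2 CPM in WT and 39.3, 39.3 and 38.9 with T3. In TRα (-/-) it had 10.5, 10.3 and 8.49 CPM without T3 and 23.7, 25.4 and 25.7 with T3. Here the untreated libraries of the 2 genotypes came within rounding of each other at 10.5 CPM, and the treated ones stood apart. Its log2 changes were 1.78 (SE 0.056, adjusted p = 1.17e-20) and 1.36 (SE 0.063, adjusted p = 2.82e-16).

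The remaining pair, ENSXETG00000018960 and ENSXETG00000033576, were too low for the rule on named genes and are given because they complete the 4. ENSXETG00000018960 had 5 or 6 counts in each WT library, 102 to 165 with T3, 3 to 7 in TRα (-/-) and 48 to 65 in TRα (-/-) with T3. ENSXETG00000033576 had 0, 8 and 9 counts in the WT libraries, 77 to 90 with T3, 12 to 15 in TRα (-/-) and 44 to 60 in TRα (-/-) with T3. Both had few counts without T3, and ENSXETG00000018960 passed the filter on low counts only through the treated groups, so its separation is no result.

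Among genes lowered in TRα (-/-), ENSXETG00000013953 (scaffold GL172821.1, 1115400 to 1164635, plus strand, 52 blocks) differed less between the genotypes with T3 than without. It had 82.8, 87.6 and 85.9 CPM in WT, 39.9, 40.7 and 43.5 in TRα (-/-), 11.5, 10.5 and 10.7 in WT with T3 and 14.6, 14.1 and 14.7 in TRα (-/-) with T3. Its T3 change was -2.97 on the log2 scale (SE 0.042, adjusted p = 4.41e-28) in WT and -1.52 (SE 0.046, adjusted p = 3.31e-20) in TRα (-/-).

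Without T3, 31 of the genes were called at 2-fold or more between TRα (-/-) and WT hind limb. In TRα (-/-), 15 of the 184 genes (8.15%) were higher and 16 (8.70%) lower. Over all tested genes 13% were higher and 7.35% lower, so the share of lower genes lay near that of all tested genes. The medians were -0.10 in the 184 genes and 0.01 over all tested genes. Scaling by total counts alone gave 13 (7.07%) and 18 (9.78%), beside 11.3% and 9.09%. ENSXETG00000007799 and ENSXETG00000021319, given above, were the genes highest in TRα (-/-) relative to WT, with log2 differences of 3.19 (SE 0.087, adjusted p = 3.33e-21) and 2.11 (SE 0.085, adjusted p = 1.24e-17). Among called genes with at least 5 CPM in the higher group, the lowest relative to WT was ENSXETG00000015878 (scaffold GL172642.1, 3977862 to 4100818, plus strand, 96 blocks). It had 11.4, 10.5 and 10.9 CPM in WT and 1.84, 2.09 and 1.85 in TRα (-/-), a log2 difference of -2.50 (SE 0.107, adjusted p = 4.00e-17). With T3 it was under 1 CPM in both genotypes, at 0.499, 0.623 and 0.739 CPM in WT and 0.618, 0.423 and 0.449 CPM in TRα (-/-), where the libraries of the 2 genotypes overlapped.

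ENSXETG00000008955 (scaffold GL173152.1, 194492 to 390545, plus strand, 59 blocks) was lower in TRα (-/-) and changed little there with T3. It had 13.6, 14.9 and 14.7 CPM in WT, 7.84, 7.5 and 8.52 in WT with T3, 5.23, 5.04 and 4.61 in TRα (-/-) and 4.99, 5.1 and 4.52 in TRα (-/-) with T3. The genotype difference without T3 was -1.54 on the log2 scale (SE 0.084, adjusted p = 6.10e-15). The T3 change in TRα (-/-) was -0.02 (SE 0.096, adjusted p = 0.878) and its treated and untreated libraries overlapped.

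The untreated WT libraries enter both the T3 contrast in WT and the genotype contrast without T3, so the values are set side by side and no overlap is read from them. The 15 genes higher in TRα (-/-) had log2 genotype differences from 1.03 to 3.19 and T3 changes in WT from -2.56 to 3.45. The 16 lower genes had differences from -2.79 to -1.02 and T3 changes in WT from -4.65 to -0.64. The value of -2.79 was that of ENSXETG00000032528, which had 20 to 35 counts in the WT libraries and 1 to 6 in TRα (-/-). This gene passed the filter on low counts only through untreated WT, so its difference is no result.

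With T3, 116 of the 184 genes had a lower value in TRα (-/-) than in WT, beside 7246 of the 14320 tested genes. Few of the 184 were called at 2-fold or more. In TRα (-/-), 12 (6.52%) were called higher and 1 (0.543%) lower, beside 11.4% and 3.77% over all tested genes. The medians were -0.18 in the 184 genes and -0.01 over all tested genes. The split of calls depended on the scaling, since total counts alone gave 6 higher (3.26%) and 42 lower (22.8%). Over all tested genes these shares were 5.69% and 18.2%. With this scaling 159 of the 184 genes had a lower value, beside 11036 of the 14320 tested genes. The 12 genes called higher had T3 changes in WT from -4.65 to -0.95, in a contrast that uses the same treated libraries. Among called genes with at least 5 CPM in the higher group, the largest differences were those of ENSXETG00000014244, with 3.25 on the log2 scale (SE 0.097, adjusted p = 3.23e-20), and ENSXETG00000033563 (scaffold GL172876.1, 923105 to 956868, minus strand, 55 blocks). The latter had 809, 824 and 834 CPM in WT, 138, 150 and 144 in WT with T3, 491, 498 and 513 in TRα (-/-) and 424, 423 and 443 in TRα (-/-) with T3. Its genotype difference with T3 was 1.58 on the log2 scale (SE 0.036, adjusted p = 9.06e-23). The single gene called lower was ENSXETG00000021319, at -1.18 (SE 0.063, adjusted p = 7.39e-15). Leaving out any 1 of the WT libraries with T3 gave 2 genes called lower, and leaving out replicate 2 or 3 of TRα (-/-) with T3 gave 3.

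The interaction asked whether the T3 change differed between the genotypes. A positive value means that the change in TRα (-/-) was more positive, or less negative, than in WT. It passed the test at 2-fold or more in 28 genes upward (15.2%) and 23 downward (12.5%), beside 17.7% and 16.6% over all tested genes, and with total counts alone in 15 and 47, beside 10.6% and 27.3%. The largest positive value was that of ENSXETG00000014244 at 4.28 (SE 0.118, adjusted p = 3.91e-21) and the next among the named genes that of ENSXETG00000015544 at 2.45 (SE 0.064, adjusted p = 1.32e-21). The largest negative values were -3.89 in ENSXETG00000007799 (SE 0.106, adjusted p = 3.64e-21) and -3.29 in ENSXETG00000021319 (SE 0.106, adjusted p = 1.05e-19). The T3 contrast in WT shares all its libraries with the interaction, so both are given as values. The 60 genes lowered in WT had interaction values from -0.64 to 4.28, with a median of 0.85, and the 28 raised in WT had values from -3.89 to -0.05, with a median of -1.26.

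**Figure D3:**
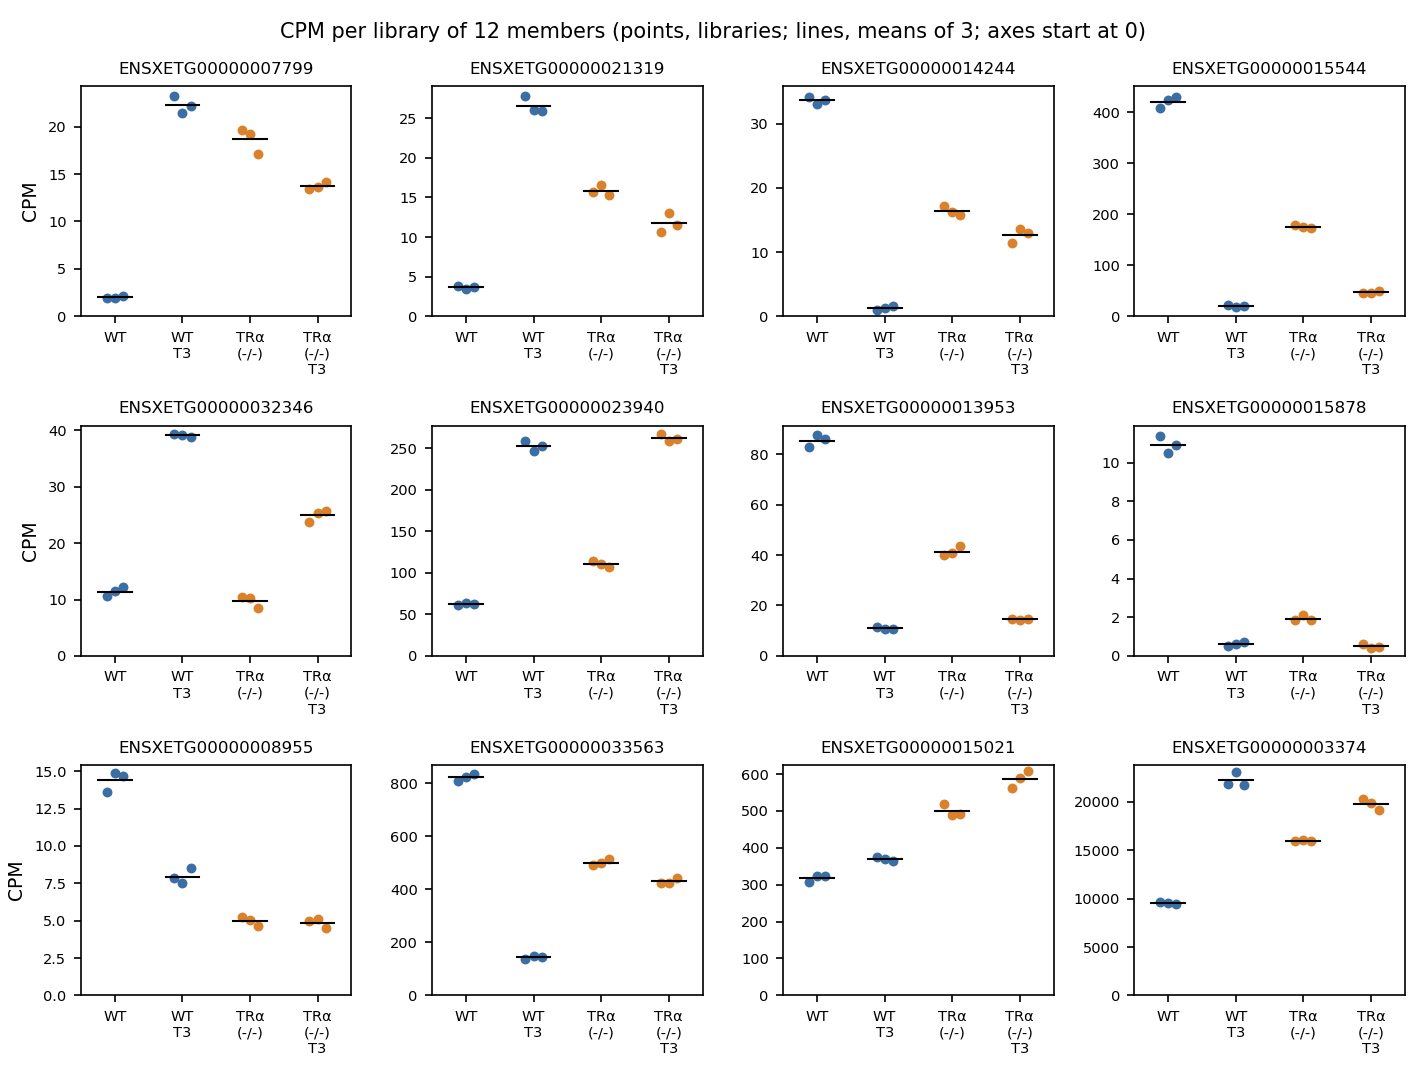
CPM in each library (points) of the 12 genes named by rule, in WT and TRα (-/-) without and with T3, with the mean of 3 libraries (line) and axes from 0. In ENSXETG00000007799 and ENSXETG00000021319 the untreated WT libraries are lowest, and in ENSXETG00000014244 and ENSXETG00000033563 the T3-treated WT libraries are.

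Calls under other thresholds are given for the same fit. With the adjusted p alone, T3 in WT raised 65 and lowered 105 of the 184 genes (42.9% and 45.9% of all tested genes) and T3 in TRα (-/-) raised 40 and lowered 116 (37.1% and 37.9%). Genotype without T3 then gave 62 higher and 86 lower (38.9% and 38.3%), genotype with T3 45 and 90 (37.6% and 37.7%), and the interaction 74 and 73 (39.4% and 38.1%). A test against 2-fold itself, which asks for a change shown to exceed 2-fold, left 22 genes lowered by T3 in TRα (-/-) (5.28% of all tested genes). It left 9 higher and 9 lower for genotype without T3 (8.66% and 4.44%), 7 higher for genotype with T3 (7.32%) and 14 negative for the interaction (11.7%).

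Within the set the share of lowered genes was higher in the genes with most blocks. For T3 in WT, 20 of 103 genes with 50 to 59 blocks were raised and 29 lowered, 6 of 49 with 60 to 79 blocks were raised and 17 lowered, and 2 of 32 with 80 or more were raised and 14 lowered. Their median log2 changes were -0.23, -0.29 and -0.84. In TRα (-/-) the same classes had 3, 1 and 0 genes raised and 18, 10 and 8 lowered, with medians of -0.32, -0.46 and -0.58. With scaling by total counts alone the medians in WT turned to 0.31 and 0.24 in the first pair of classes and stayed negative, at -0.30, in the class with 80 or more, where 6 were raised and 10 lowered. These are counts over genes, with no test of the order. They include genes that passed the filter on low counts only through the group where they were higher. ENSXETG00000032283 (76 blocks), called lowered in WT, had 12 to 16 counts in the WT libraries and 2 to 19 with T3. It passed only through untreated WT, so its call is no result.

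Genes with fewer blocks give the setting of these values. For T3 in WT, 24.2% of genes with 2 to 9 blocks were raised and 24% lowered, 22% and 25.4% of those with 10 to 29 blocks, and 15.3% and 29.1% of those with 30 to 49 blocks. The median log2 changes were 0.03, -0.09 and -0.36. The genes just inside and just outside the limit of 50 had like values. The 60 genes with 50 to 54 blocks had 12 raised and 15 lowered by T3 in WT with a median of -0.18, and the 81 genes with 45 to 49 blocks had 16 and 20 with a median of -0.17. In TRα (-/-) the former had 2 raised and 10 lowered with a median of -0.25, and the latter 4 and 17 with a median of -0.30. Of genes with 30 to 49 blocks, T3 in TRα (-/-) raised 5.11% and lowered 15.9%, with a median of -0.30. The downward lean there was thus not particular to the set. Summed exon length rises with the number of blocks, from a median of 1278 bp at 2 to 9 blocks to 4579.5 bp at 30 to 49. Whether these values go with the number of blocks or with the length of the transcript was not tested.

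**Figure D4:**
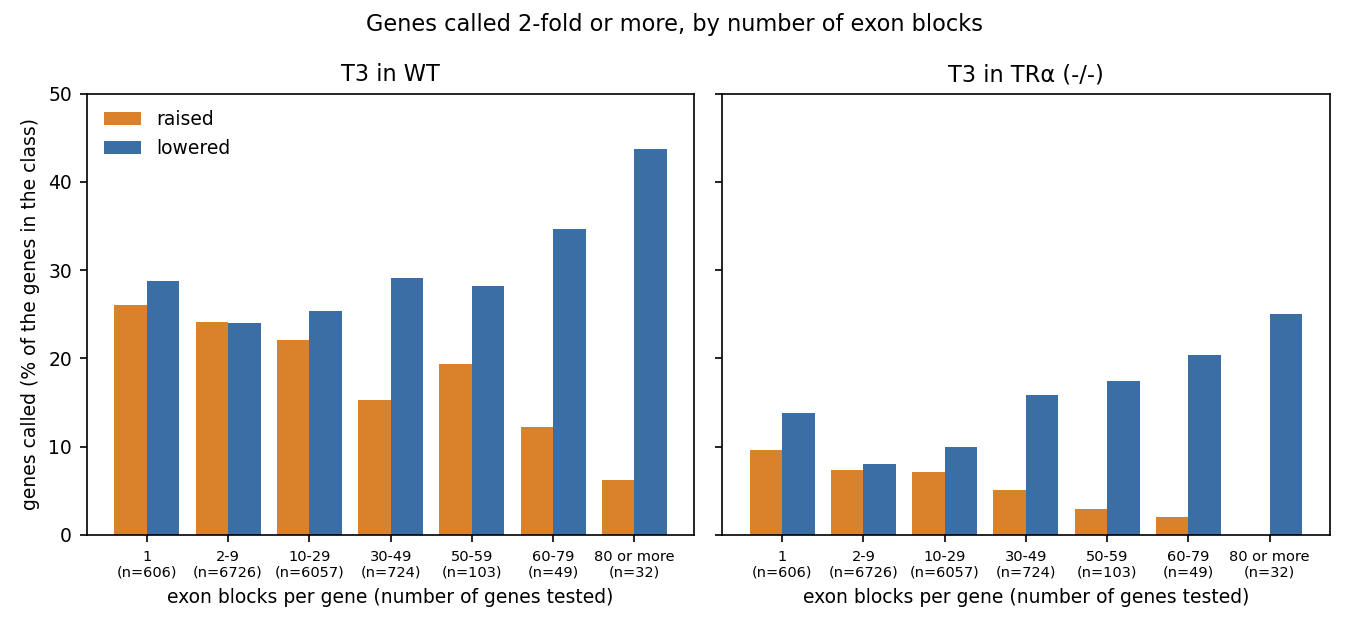
Share of tested genes called raised (orange) or lowered (blue) by T3 in WT (left) and TRα (-/-) (right), in % of each class on the y axis, by number of exon blocks on the x axis, with TMM scaling. In genes with 80 or more blocks 43.8% were lowered and 6.25% raised in WT, and 25% and 0% in TRα (-/-).

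The gene with most blocks, ENSXETG00000015021 (scaffold GL172799.1, 1548796 to 1715375, minus strand), had 295 blocks and 94440 bp of exon, and its T3 changes were under 2-fold. It had 308, 324 and 323 CPM in WT, 376, 369 and 365 in WT with T3, 518, 490 and 492 in TRα (-/-) and 563, 589 and 610 in TRα (-/-) with T3. T3 changed it by 0.22 (SE 0.036, adjusted p = 3.92e-06) in WT and 0.23 (SE 0.036, adjusted p = 2.48e-06) in TRα (-/-) on the log2 scale, with an interaction of 0.01 (SE 0.051, adjusted p = 0.819). The groups did not overlap, and TRα (-/-) was higher than WT by 0.65 without T3 (SE 0.036, adjusted p = 9.18e-15).

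A small class of the genes had blocks of a regular length. In 13 of the 184 genes at least 46% of the blocks were 45, 54, 99, 108 or 162 bp long, and no other gene of the set reached more than 28%. Such genes were not confined to the set. Of the 6781 tested genes with 10 to 49 blocks, 6 had 40% or more of their blocks at these lengths. Each of the 13 genes of the set had 17 to 33 blocks of exactly 54 bp, and 12 of the 13 a median block length of 54 bp. These 13 are called the 54 bp exon class here. Fibrillar collagen genes of vertebrates are known for exons of 54 bp and related lengths, but no gene of the class was identified by name or sequence. The class was drawn up after expression values had been seen, so its values are a description with no test.

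In WT with T3, 4 of the 13 genes were raised (30.8%, beside 22.8% of all tested genes) and none lowered, with a median log2 change of 0.97, 10 positive and 3 negative values, while of the other 171 genes 24 were raised and 60 lowered, with a median of -0.54. In TRα (-/-) none of the 13 was raised and 1 was lowered (7.69%), beside 7.14% and 9.64% of all tested genes. The median was -0.19, and the other 171 had 4 raised, 35 lowered and a median of -0.45. Without T3 the class stood higher in TRα (-/-) than in WT by a median of 0.71. Of its genes 2 were called higher (15.4%, near the 13% of all tested genes). Its median interaction was -0.88, with 5 genes called negative (38.5%, beside 16.6% of all tested genes). Several genes of the class lay near 2-fold, and with DESeq2 7 were raised by T3 in WT (53.8%, beside 23.4% of all tested genes). The number was also 7 with its size factors. Total counts alone shifted the median of all tested genes by 0.54 in this contrast. Under it 10 of the class were raised (76.9%, beside 35.7%), and 10 had a negative interaction (76.9%, beside 27.3%).

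The class held the highest genes of the set. ENSXETG00000003374 (scaffold GL172791.1, 1008038 to 1034194, minus strand, 51 blocks of which 21 are 54 bp) had the highest level per kb of exon, and ranked 98 among all tested genes. It had 9662, 9571 and 9423 CPM in WT, 21872, 23133 and 21760 in WT with T3, 15994, 16074 and 15919 in TRα (-/-) and 20295, 19921 and 19180 in TRα (-/-) with T3. T3 raised it by 1.22 on the log2 scale (SE 0.025, adjusted p = 8.99e-25) in WT, and its change in TRα (-/-) was 0.31 (SE 0.025, adjusted p = 1.98e-11). Untreated TRα (-/-) libraries lay between the untreated and the treated WT libraries.

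The other genes of the class raised by T3 in WT or lowered in TRα (-/-) are named because they are few, after their values were seen. ENSXETG00000020318 had means of 4312 ± 144, 11450 ± 503, 6862 ± 126 and 9918 ± 188 CPM (SD, n = 3) in WT, WT with T3, TRα (-/-) and TRα (-/-) with T3, and T3 changed it by 1.41 and 0.53 on the log2 scale in the 2 genotypes. ENSXETG00000010783 had 784 ± 7.34, 3477 ± 52.8, 1604 ± 11.7 and 2167 ± 26.7 CPM in the same order, with log2 changes of 2.15 and 0.43. In both, as in ENSXETG00000003374, untreated TRα (-/-) lay between untreated and treated WT. ENSXETG00000010655 had 177 ± 5.03, 455 ± 14.7, 320 ± 14.1 and 340 ± 2.10 CPM, with log2 changes of 1.36 and 0.08. ENSXETG00000009644 was the class member lowered by T3 in TRα (-/-), from 348 ± 6.17 to 155 ± 2.52 CPM, a log2 change of -1.17 (SE 0.037, adjusted p = 7.48e-20), and in WT it went from 142 ± 1.53 to 91.9 ± 3.18 CPM. The 5 genes of the class called negative in the interaction were ENSXETG00000010783 (-1.71), ENSXETG00000010655 (-1.28), ENSXETG00000012724 (-1.19), ENSXETG00000034204 (-1.19) and ENSXETG00000011757 (-1.07).

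ENSXETG00000010783 and another gene of the class, ENSXETG00000010784, were neighbours on scaffold GL172638.1, on opposite strands with 13588 bp between them. ENSXETG00000010784 had 596 ± 10.1 CPM in WT and 1187 ± 15.1 with T3, a log2 change of 0.99 against 2.15 in its neighbour. Their T3 changes in TRα (-/-) were 0.22 and 0.43. They were 1 of 6 pairs of the 184 genes that lay next to each other on a scaffold.

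The share of all counts that fell in the 184 genes followed these few. Their share was 2.54% ± 0.022 (SD, n = 3) in WT, 6.59% ± 0.083 in WT with T3, 3.20% ± 0.038 in TRα (-/-) and 3.99% ± 0.013 in TRα (-/-) with T3, and no groups overlapped. The 3 highest on the mean of the 4 groups, ENSXETG00000003374, ENSXETG00000020318 and ENSXETG00000010783, took 1.35%, 4.97%, 2.11% and 3.00% by themselves. The 171 genes outside the 54 bp exon class took 0.963%, 1.09%, 0.794% and 0.718%. On the TMM scale, which sets aside the shift of the library totals, these 171 genes summed to 10472 ± 49.8 CPM in WT and 8166 ± 40.6 with T3, and to 9188 ± 64.9 CPM in TRα (-/-) and 7625 ± 148 with T3. The 13 genes of the class summed to 17155 ± 238 and 41098 ± 1310 CPM in WT, and to 27886 ± 131 and 34816 ± 743 CPM in TRα (-/-). On this scale the summed level of the class was higher with T3 in both genotypes and that of the other genes lower, each by more than the spread between libraries, while as a share of all counts the other genes were higher with T3 in WT. The 10 genes of the class beside the 3 highest summed to 2506 ± 20.2 and 3917 ± 20.4 CPM in WT, and to 3424 ± 46.9 and 2932 ± 38.1 CPM in TRα (-/-), so the higher sum of the class with T3 in TRα (-/-) lay in the 3 highest genes.

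**Figure D5:**
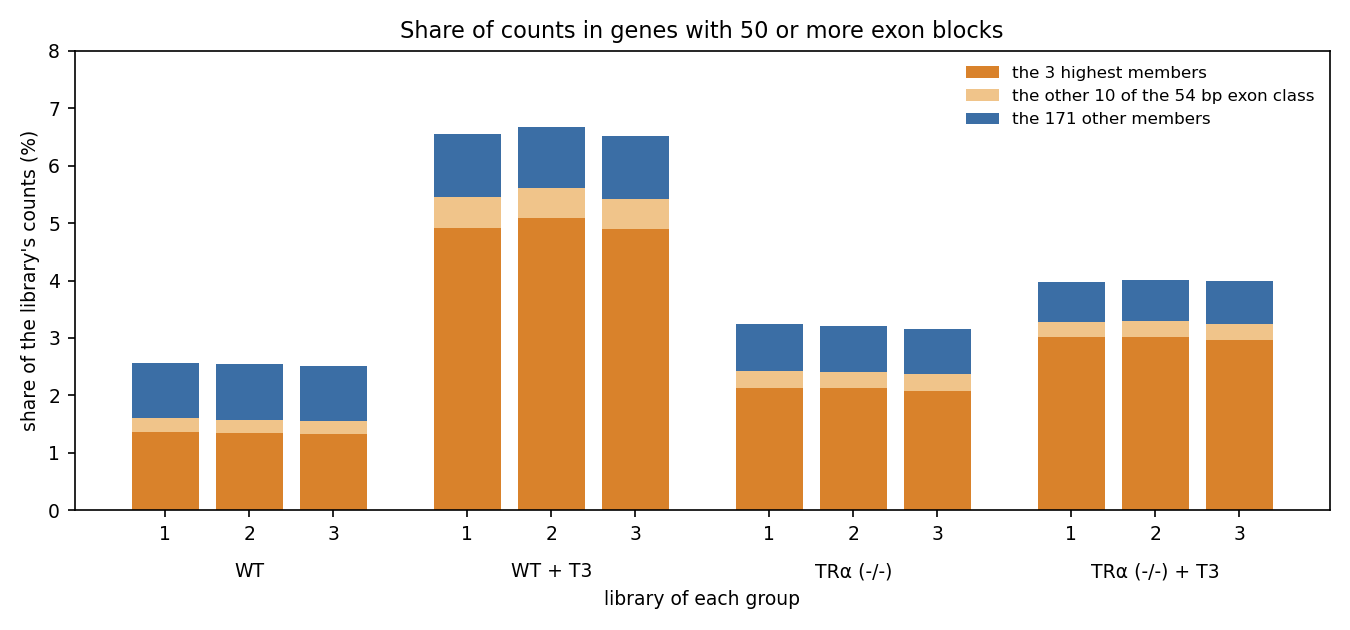
Share of each library's counts (%, y axis) in the 184 genes, for the 3 libraries of each group (x axis), stacked as the 3 highest genes, the other 10 of the 54 bp exon class and the 171 other genes. The 3 highest genes take 4.97% in WT with T3 and 1.35% in WT without T3, on means of 3 libraries.

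By level, taken as the mean of the 4 groups, the counts for T3 in WT stand beside those of all tested genes of the same level. The 27 genes with 100 CPM or more, which include genes of the 54 bp exon class, had 8 raised and 6 lowered (29.6% and 22.2%, beside 26.4% and 32.1%), with a median log2 change of 0.55 against -0.04. The 110 genes with 10 to 100 CPM had 14 raised and 34 lowered (12.7% and 30.9%, beside 23% and 19.8%), with a median of -0.50 against 0.05. The 26 with 1 to 10 CPM had 3 and 10 (11.5% and 38.5%, beside 21.1% and 26.5%), and the 21 below 1 CPM had 3 and 10 (14.3% and 47.6%, beside 24.9% and 38.1%). Their medians were -0.63 and -0.95, against -0.12 and -0.40. The class below 1 CPM includes genes that passed the filter on low counts only through 1 group. ENSXETG00000002141, called raised, had 1 or 2 counts in the WT libraries and 16 to 22 with T3. ENSXETG00000032528, called lowered, had 20 to 35 counts in the WT libraries and 3 to 7 with T3. Calls of such genes are no result, so the shares of this class are given without a reading.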

How the data were processed

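RNA sequencing of 12 hind limb libraries was used, 3 for each of 4 groups taken from the labels. From poly-A RNA the authors prepared TruSeq libraries and sequenced paired ends of 100 nt, and mapped these with STAR to the Ensembl JGI 4.2 assembly and counted them per gene over exons with featureCounts. The submitters' processing notes list STAR 2.5.3a and featureCounts 1.4.6-p3. The deposited values are raw counts with no normalization. Strand and the handling of multiply mapping reads are not given in the sources used here, so near-identical genes and genes that overlap another (162 of those tested, 1 of the 184) are uncertain.

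Counts were filtered with filterByExpr, scaled by TMM and fitted over all libraries with glmQLFit and glmQLFTest of edgeR 4.0.16 (R 4.3.3), with 1 mean per group and 5 contrasts. A gene was called at an adjusted p under 0.05 and 2-fold or more. The code was tested on simulated data. DESeq2 1.42.0, other scalings, filters, thresholds and definitions of the set were tried, and each library was left out in turn. The members and lists were chosen with earlier results of these data known.

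Named genes are, for each contrast, the 2 called genes with the largest change in each direction, provided the group with more had 5 CPM or above and the compared libraries did not overlap. Added to these are the genes with most blocks and the highest level per kb. Other genes named are said to be so. The file does not pair identifiers with names, and 0 of 19921 identifiers occur in the name table given (assembly UCB_Xtro_10.0, 28858 entries), so the lists of gene families and cell type markers were not used.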

Additional observations from a re-analysis of the deposited data

Results flagged for a closer look

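The response to T3 differed between the genotypes, by the interaction test, in the number of genes given above. The change in TRα (-/-) was more positive in 28 (15.2%) and more negative in 23 (12.5%). These shares lay below the 17.7% and 16.6% of all tested genes, so such a difference was not particular to this set. Among the genes named by rule the interaction passed in 7. The rule chose genes by large changes, including those in the interaction, so this number is no separate result. On the log2 scale it was 4.28 in ENSXETG00000014244, 2.45 in ENSXETG00000015544, 2.30 in ENSXETG00000033563, 2.19 in ENSXETG00000015878 and 1.45 in ENSXETG00000013953. It was -3.89 in ENSXETG00000007799 and -3.29 in ENSXETG00000021319. Each group is 1 RNA pool, so a difference between pools and a difference between genotypes cannot be told apart.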

How the results depend on the processing

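The counts of called genes, raised then lowered, were, in the order of the report (the T3 contrast in WT and in TRα (-/-), the genotype contrast first without and then with hormone, and the interaction), 28 and 60, 4 and 36, 15 and 16, 12 and 1, and 28 and 23. With scaling by total counts alone they were 54 and 35 for T3 in WT, 6 and 42 in the genotype contrast with T3 and 15 and 47 in the interaction, and the median log2 change for T3 in WT turned to 0.10. With the adjusted p alone they were 65 and 105, 40 and 116, 62 and 86, 45 and 90, and 74 and 73. The test against 2-fold gave 22 lowered by T3 in TRα (-/-), 9 and 9 in the genotype contrast without T3, 7 higher in that with T3 and 14 negative in the interaction. At least 10 counts in every library left 2 raised by T3 in TRα (-/-). Genes called lower with T3 in TRα (-/-) than in WT were 2 with DESeq2 or its size factors and 4 with no filter.

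A limit of 40 or more blocks, a longer list, gave 62 and 127, 14 and 76, 40 and 31, 24 and 10, and 61 and 53. A limit of 60 or more, a shorter list, gave 8 and 31, 1 and 18, 5 and 8, 6 and 0, and 16 and 6. This list holds the 49 genes with 60 to 79 blocks and the 32 with 80 or more. T3 in WT lowered 34.7% and 43.8% of these classes, beside 25.1% of all tested genes. Any genes kept only through their higher group are included. The lists differ in size, so these counts alone do not show whether the shares moved. Counts by class of block number, with the number of genes in each class, are given above. Distinct or merged blocks gave the main list. Joining short gaps and leaving out the 54 bp exon class, both chosen after seeing the data, as were the other scalings of that class, moved no count over 1.5-fold. Leaving out each library gave 27 to 30 and 58 to 60, 4 and 33 to 42, 11 to 15 and 14 to 17, 10 to 12 and 1 to 3, and 27 to 29 and 21 to 23. With mitochondrial genes left out of the total the shares were 2.58%, 6.75%, 3.29% and 4.08%. Replicate numbers did not pair the libraries (18 correlations from -0.05 to 0.08), and the replicate block changed 1 count, 36 to 37. Of 528 values for named genes under alternatives, 527 kept direction and call, and the genotype difference of ENSXETG00000015544 with T3 fell under 2-fold (0.68) with total counts alone. These genes were chosen for large called changes, which favours such agreement, and it does not extend to the counts over the set.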
